A study of Mus musculus with 21 samples.

Results

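The genes of the nuclear pore and of nuclear transport were followed through erythroid differentiation of MEDEP cells, red cell progenitors that were made from mouse embryonic stem cells. The 51 genes were chosen by symbol as nucleoporins, importins, exportins and the GTPase Ran, and they are 51 of 22483 genes in the deposited table. All 51 were among the 12360 genes with enough counts to be tested. Polyadenylated RNA of 1 line, BRC5, had been sequenced as strand-specific libraries in 7 groups of 3 biological replicates, 21 libraries in all. Cells at 0 h grew with stem cell factor and the glucocorticoid dexamethasone. At 12, 24, 36, 48 and 72 h both had been withdrawn for that long and 4 U/ml erythropoietin (Epo) had been added. The last group, 12 h SA, received Epo plus succinyl acetone (SA), which blocks the making of heme, and was set against 12 h. All groups share this 1 line, so p-values measure the spread between its replicate samples.

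The nuclear pore is a ring-shaped channel through the nuclear envelope, built of outer and inner rings, membrane anchors, a central channel lined with phenylalanine-glycine repeats, filaments on the cytoplasmic face and a basket on the nuclear side. Importins carry cargo inwards and exportins carry it outwards, and the direction is set by Ran, which is loaded with GTP in the nucleus. Late in their maturation mammalian erythroblasts condense the nucleus and expel it, and in mouse erythroblasts the exportin Xpo7 has been reported to be needed for that condensation.

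Libraries held 16.7 to 39.3 M estimated counts. All 12 erythroid markers on a list of identity genes were tested, and their summed level lay between 1783 and 1961 CPM (counts scaled to the normalized library size, per 1 M counts) at 0 h, 41589 and 47692 at 24 h, and 427028 and 822456 at 72 h. Globins made up much of that sum, with Hbb-bs alone at 259141 to 424834 CPM at 72 h. Klf1 had 295 to 372 CPM at 24 h and 65 to 76.4 CPM at 72 h, and Tfrc 5573 to 6023 CPM at 24 h and 1794 to 2528 CPM at 72 h. Embryonic stem cell markers summed to at most 3.74 CPM in any library. Globin transcripts took 0.0467 to 0.0752% of counts at 0 h, 4.26 to 5.07% at 24 h, 22.3 to 22.8% at 36 h and 31.7 to 37% at 72 h. Both scales in use are therefore given. Changes are log2 ratios from edgeR on the TMM scale (trimmed mean of M-values), where the median tested gene changed by -0.03 at 36 h against 24 h and by -0.13 at 72 h against 0 h. On the scale of deposited TPM (transcript abundance per length and library), with 1 added before the log, the same medians were -1.84 and -3.26. A rise on the TMM scale is thus a rise against the typical tested gene, and in bulk RNA it cannot be told apart whether fewer cells carry a transcript or each cell carries less of it.

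Xpo7 (ENSMUSG00000022100.14, GRCm38 chromosome 14, 70654246 to 70766628, minus strand, protein coding) is an exportin of broad cargo range. GENCODE M21 lists 6 transcripts for it, of which Xpo7-206 starts far inside the gene, at 70708035, and is the 1 transcript whose start the annotation marks as supported by CAGE, a method that maps capped 5′ ends. Its coding sequence of 3264 bases and the 3261 bases of Xpo7-201 share 3245 bases and differ at the 5′ end. The first coding bases are shown because they are what would tell these forms apart; capitals mark the bases each form does not share with the other, and the 30 lower case bases that follow are common to both.
Xpo7-201: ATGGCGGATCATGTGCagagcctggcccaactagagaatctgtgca
Xpo7-206: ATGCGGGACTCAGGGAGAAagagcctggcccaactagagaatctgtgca
The deposited tables sum over all transcripts of a gene, so the values that follow do not separate these forms.

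Xpo7 had 68.2, 69.9 and 68.3 CPM at 0 h, 56.7, 56 and 57.1 CPM at 12 h and 64, 57.7 and 56.8 CPM at 24 h. At 36 h the libraries held 4234, 5351 and 4128 CPM, at 48 h 5417, 5807 and 5949 CPM, and at 72 h 2333, 3213 and 2838 CPM. No library from 36 h on came within the range of any library up to 24 h. The log2 change was 6.26 ± 0.13 at 36 h against 24 h (SE, n = 3 against 3, edgeR adjusted p = 6.78e-18), the 53rd highest of 12360 genes. On the TPM scale the libraries at 36 h held 449, 489 and 452 TPM, against 25.8, 22.1 and 23.2 TPM at 24 h, a log2 change of 4.24. It took 0.308 ± 0.0238% of all counts at 36 h (mean ± SD, n = 3), against 0.00804 ± 5.96e-04% at 24 h.

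After this step the level stayed high. Xpo7 was called higher at 48 h than at 36 h, by 0.32 ± 0.11 (adjusted p = 0.0143). That call was lost when 36 h replicate 1 or 36 h replicate 3 was left out, and on the TPM scale the change was -0.32 and not called. At 72 h Xpo7 was 1.03 log2 units below 48 h (-1.03 ± 0.11, adjusted p = 5.14e-08), and still 5.34 ± 0.13 above 0 h (adjusted p = 7.8e-19; 1.61 on the TPM scale). In TPM the 72 h libraries held 111, 85.4 and 133, against 34.2, 34.7 and 35.4 at 0 h. The first step went the other way: at 12 h against 0 h Xpo7 changed by -0.28 ± 0.11 (adjusted p = 0.0313), a call that was lost when any 1 of the 6 libraries was left out and on the TPM scale. At 24 h against 12 h it changed by 0.07 ± 0.11 and did not pass the test.

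The rise of Xpo7 at 36 h came with a rise of the integrin Itga2b, which megakaryocytes and early progenitors share. The 7 megakaryocyte and platelet markers summed to between 1111 and 1414 CPM at 36 h, against 103 to 117 CPM at 24 h, and Itga2b alone gave 1035 to 1335 CPM at 36 h. Of the other markers Ppbp was at 0 in every library and Pf4 stayed at or below 0.194 CPM. Of the 7, 4 had enough counts to be tested, and all 4 were called higher at 36 h against 24 h (median 2.32 on the TMM scale), while on the TPM scale 2 were higher and 2 lower. The erythroid markers summed to 262009 to 307951 CPM at 36 h, against 41589 to 47692 CPM at 24 h. The part of either list in the result for Xpo7 was not tested.

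**Figure D1:**
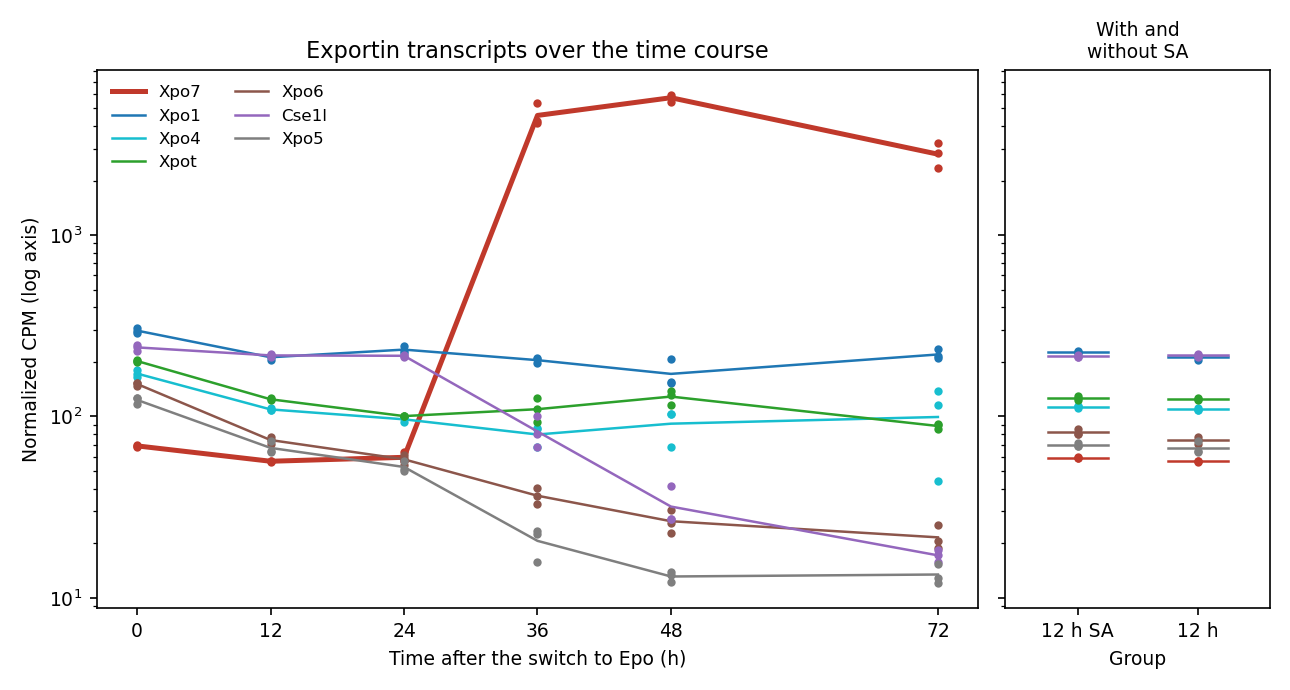
Normalized CPM of the 7 exportins (log axis) by time after the switch to Epo, and on the right at 12 h SA and 12 h; points are libraries and lines or bars are means of 3. Xpo7 lies between 56 and 69.9 CPM in every library up to 24 h and between 2333 and 5949 CPM from 36 h on.

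To set Xpo7 against the rest, libraries were scaled by the median ratio of the other 50 genes in place of TMM. On that scale Xpo7 changed by 6.99 ± 0.17 at 36 h against 24 h, which is 127-fold (edgeR adjusted p = 2.63e-17), and by 7.60 ± 0.18 at 72 h against 0 h, which is 194-fold (adjusted p = 1.4e-19). The next highest of the 50 on the same scale were Tnpo1 at 3.60 and Nup153 at 4.43. Xpo7 also rose against the others at 48 h relative to 36 h (1.11 ± 0.13, adjusted p = 4.75e-07) and fell against them at 72 h relative to 48 h (-0.74 ± 0.13, adjusted p = 7.51e-05). Its difference from the others did not pass the test between 12 h and 0 h (0.03 ± 0.13), between 24 h and 12 h (0.22 ± 0.13) or between 12 h SA and 12 h (0.02 ± 0.13). With the summed counts of the 50 as the scale, the changes were 6.35 at 36 h, 0.30 at 48 h and -1.02 at 72 h against the time before, and 5.81 at 72 h against 0 h, in the same directions. As a ratio within a library, the log2 TPM of Xpo7 minus the median log2 TPM of the 50 was 6.20 ± 0.29 at 36 h, against -0.89 ± 0.07 at 24 h (SD, n = 3 each), with an exact two-sided permutation p of 0.1 (0.14 adjusted over 7 comparisons), the smallest that 3 against 3 can give.

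Per length, in TPM, Xpo7 ranked 47th of the 51 genes at 0 h, at 34.8 ± 0.634 TPM (SD, n = 3), where Ran led at 535 ± 1.12 TPM, before Ipo5 at 455 ± 6.72 and Kpna2 at 387 ± 21. Its library range overlapped that of its next lower neighbour at 0 and 24 h. At 36 h Xpo7 ranked first, at 463 ± 22.6 TPM, before Tnpo1 at 89.2 ± 4.35 and Ranbp2 at 67.9 ± 3.39. At 72 h it was first again, at 109.9 ± 23.8 TPM, before Tnpo1 at 51.4 ± 15.1, and the libraries of those genes did not overlap.

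The other exportins did not share this course. At 72 h against 0 h the other 6 were called lower. Cse1l, which returns importin alpha to the cytoplasm, had 18.4, 17.2 and 15.8 CPM at 72 h, against 242, 249 and 229.9 CPM at 0 h, a log2 change of -3.81 ± 0.15 (adjusted p = 7.06e-16). Xpo5, the exporter of microRNA precursors, changed by -3.20 ± 0.12, and Xpo6, the exporter of actin, by -2.81 ± 0.11. Xpot, the tRNA exporter, changed by -1.19 ± 0.09, and Xpo4, which carries the translation factor eIF5A, by -0.79 ± 0.24. Xpo1, the receptor for leucine-rich export signals, held 209, 215 and 235 CPM at 72 h, against 296, 307 and 289 CPM at 0 h (-0.44 ± 0.09), and its call was lost with the size factors of DESeq2. Xpo4 spread widely between replicates at 72 h, with 43.9, 138 and 116 CPM.

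Within the exportin family Xpo7 therefore changed from a minor to the main transcript. Its share of the family's summed TPM was 3.99 ± 0.0619% at 0 h, 4.66 ± 0.125% at 12 h, 5.02 ± 0.383% at 24 h, 85.8 ± 1.92% at 36 h, 90.3 ± 0.506% at 48 h and 80.7 ± 1.66% at 72 h (SD, n = 3). A share within a family does not depend on how libraries are scaled. By counts the shares were 5.48% at 0 h, 7.29% at 24 h, 89.4% at 36 h and 85.8% at 72 h. Xpo1 took 6.27% of the family's TPM at 36 h, against 34.1% at 24 h, and Cse1l 2.63% at 36 h, against 31.2% at 24 h. The share of Xpo7 at 36 h did not overlap that at 24 h, with an exact two-sided permutation p of 0.1 (0.127 adjusted over 42 comparisons), the smallest possible.

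**Figure D2:**
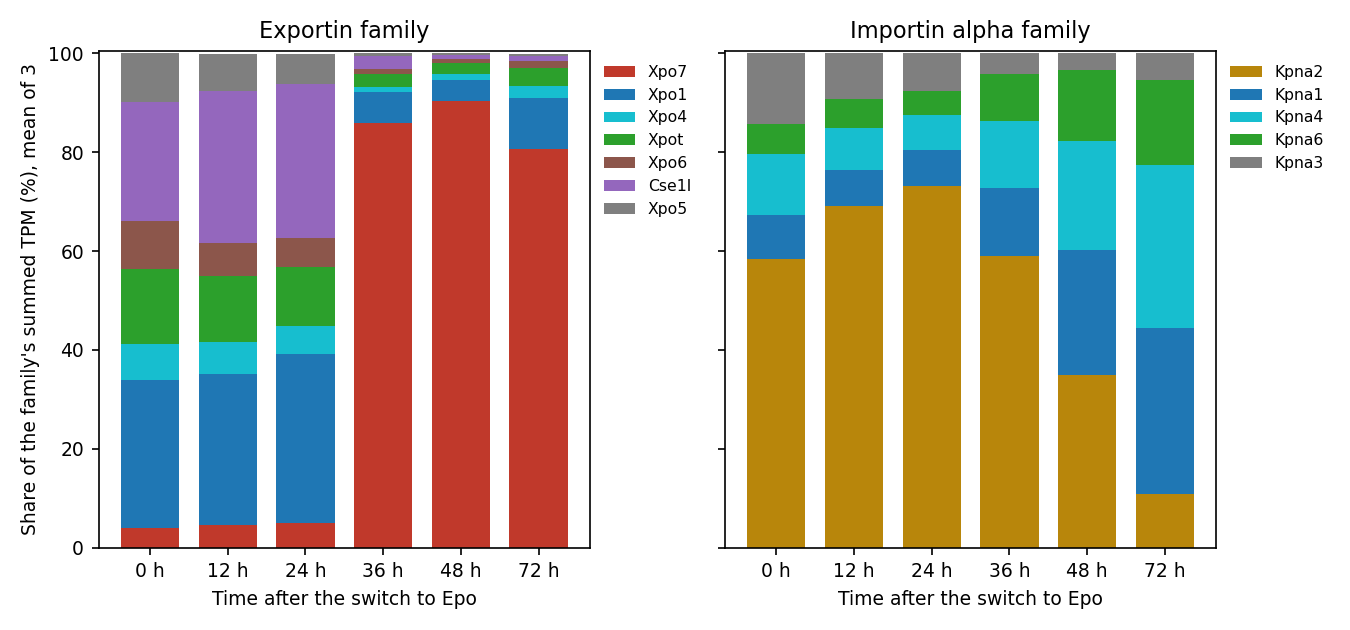
Share of each gene in the summed TPM of the 7 exportins (left) and of the 5 importin alphas (right), as the mean of 3 libraries at each time. Xpo7 fills 85.8% of the exportin bar at 36 h, and the Kpna2 part of the importin alpha bar is 10.8% at 72 h.

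Most other genes of the pore and of transport fell. At 72 h against 0 h 12 of the 51 were called higher, 38 lower, and 1, Ipo13, did not pass, where 89.8% of all tested genes were called, 43.3% higher and 46.5% lower. The median log2 change of the 51 was -2.52, against -0.13 for all tested genes.

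Step by step, 4 were called higher and 35 lower at 12 h against 0 h, where 52.9% of tested genes were called (25.3% higher, 27.6% lower). At 24 h against 12 h 3 were higher and 8 lower, where 41.1% were called (19.1% higher, 22.0% lower). Leaving out 24 h replicate 1 or 24 h replicate 2 left 1 higher, and leaving out 24 h replicate 2 left 5 lower. At 36 h against 24 h 9 were higher and 36 lower, where 73.2% were called (34.1% higher, 39.0% lower). At 48 h against 36 h 11 were higher and 36 lower, where 49.8% were called (20.0% higher, 29.7% lower). Without 36 h replicate 1 or 36 h replicate 3 that step had 6 higher, and without 48 h replicate 2 it had 7. At 72 h against 48 h 9 were higher and 30 lower, where 59.2% were called (24.7% higher, 34.5% lower). The medians of the 51 were -0.38, -0.02, -0.81, -0.64 and -0.48 in these 5 steps, in order of time. All 51 varied over the course in an F test of the 5 later times, as did 97.6% of tested genes, and Xpo7 had the third highest F of all. By mean CPM 33 genes were highest at 0 h and 12 at 48 or 72 h (6 at each).

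On the TPM scale more genes were called lower than higher in every step, among these genes and in the background. Of the 51, 2 were called higher and 27 lower at 12 h against 0 h, where 51.9% of genes were called (20.9% higher, 31.1% lower). At 24 h against 12 h 0 were higher and 23 lower, where 51.3% were called (6.32% higher, 45.0% lower). With 0.1 added in place of 1, that step had 9 lower, where 32.5% of genes were lower. At 36 h against 24 h 2 were higher, Xpo7 and Tnpo1, and 49 lower, where 93.4% were called (4.30% higher, 89.1% lower). At 48 h against 36 h 0 were higher and 41 lower, where 65.1% were called (2.58% higher, 62.5% lower). At 72 h against 48 h 1 was higher, Rae1, and 41 lower, where 63.9% were called (4.59% higher, 59.3% lower). Over the whole course, 72 h against 0 h, Xpo7 was the 1 gene called higher and the other 50 were lower, where 96.2% were called (5.26% higher, 90.9% lower).

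**Figure D3:**
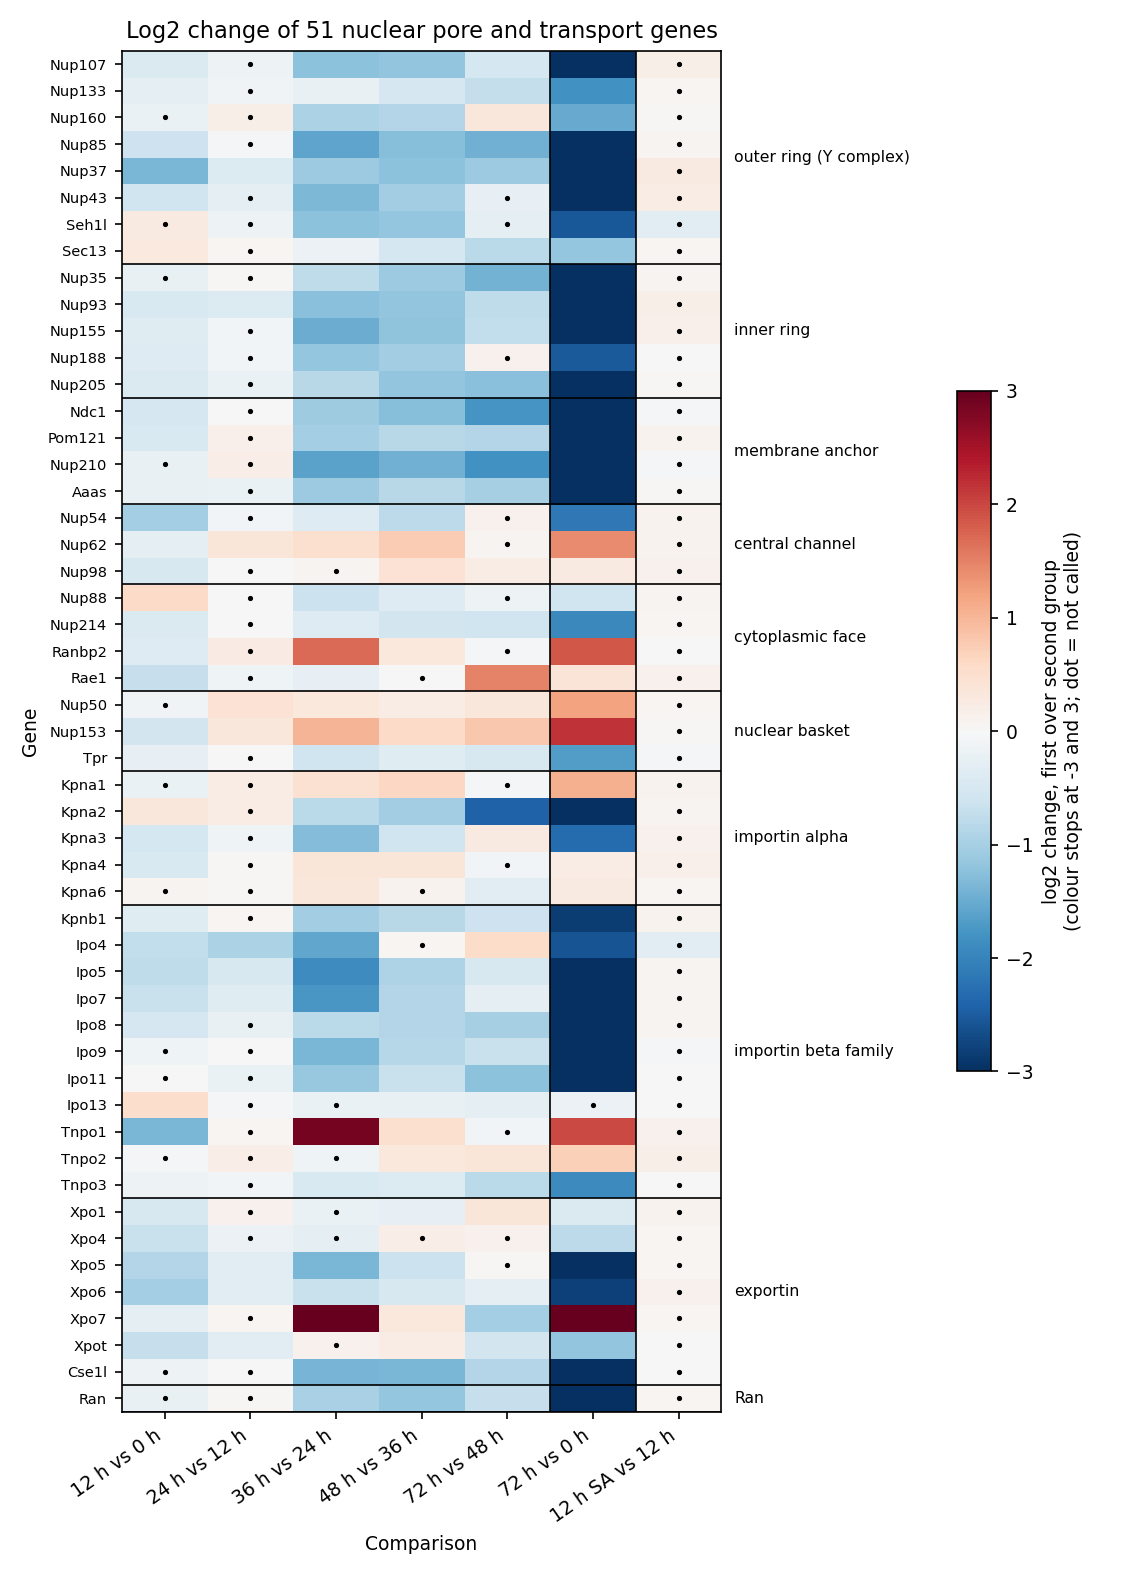
Log2 change on the TMM scale of the 51 genes (rows, by role) in 7 comparisons (columns, first over second group), with colour from blue (lower) to red (higher) and a dot where the gene was not called. In the column of 72 h vs 0 h the ring and anchor genes are all blue, while red cells fall among channel, cytoplasmic face, basket, importin and Xpo7 rows.

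The structural rings and anchors fell together. All 8 genes of the outer ring, the Y complex, were called lower at 72 h against 0 h, with a median of -3.03. Nup37, a peripheral subunit of that complex, had 0.444, 0.843 and 0.801 CPM at 72 h, against 24.6, 26.6 and 24.6 CPM at 0 h, a change of -5.18 ± 0.21 (adjusted p = 1.37e-15). It was called lower in every step, though its call at 24 h against 12 h was lost without 12 h replicate 1, 12 h replicate 3, 24 h replicate 2 or 24 h replicate 3. Sec13, which the pore shares with the COPII coat of secretory vesicles, changed least, with 30.4, 32 and 31.2 CPM at 72 h, against 69.3, 72.6 and 68.8 CPM at 0 h (-1.17 ± 0.07, adjusted p = 9.63e-13).

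All 5 genes of the inner ring were also called lower, with a median of -3.90. Nup93, the linker of that ring, had 4.18, 5.96 and 5.88 CPM at 72 h, against 89.5, 88.6 and 88 CPM at 0 h (-4.05 ± 0.14, adjusted p = 1.91e-16). Nup188, its partner, had 26.2, 26.1 and 21 CPM at 72 h, against 147, 138 and 136 CPM at 0 h (-2.52 ± 0.11, adjusted p = 6.14e-15). The 4 membrane anchors had a median of -3.99. Nup210, a transmembrane glycoprotein of the pore, had 5.07, 7 and 8.41 CPM at 72 h, against 211, 198 and 198 CPM at 0 h (-4.89 ± 0.18, adjusted p = 2.97e-16). It did not pass the test in the first 2 steps and fell in the 3 later steps, with log2 changes of -1.60 at 36 h, -1.44 at 48 h and -1.82 at 72 h, each against the time before. Pom121, another anchor, had 14.4, 17.2 and 18 CPM at 72 h, against 137, 134 and 135 CPM at 0 h (-3.03 ± 0.10, adjusted p = 5.78e-17).

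The channel, the cytoplasmic face and the basket were split. In the channel Nup62, which carries phenylalanine-glycine repeats, had 175, 251 and 233 CPM at 72 h, against 86.7, 77.6 and 82.7 CPM at 0 h, a rise of 1.42 ± 0.12 on the TMM scale (adjusted p = 6.91e-10) and a change of -2.07 on the TPM scale. Nup54, its partner in the channel, had 20.3, 14.4 and 15.6 CPM at 72 h, against 73.3, 76.4 and 71.3 CPM at 0 h (-2.14 ± 0.12, adjusted p = 4.17e-13). The transcripts of these channel partners thus moved apart on the TMM scale.

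On the cytoplasmic face Ranbp2, the large filament protein that binds Ran and has SUMO ligase activity, had 1198, 1628 and 1395 CPM at 72 h, against 376, 405 and 382 CPM at 0 h. Its change was 1.86 ± 0.11 on the TMM scale (adjusted p = 5.91e-13) and -2.12 on the TPM scale. It stepped up at 36 h, like Xpo7, to 1175, 1278 and 1033 CPM at 36 h, against 341, 361 and 362 CPM at 24 h (1.71 ± 0.11, adjusted p = 1.22e-11; -0.41 on the TPM scale). Nup214, an anchor of mRNA export factors, had 31.1, 34.1 and 33.8 CPM at 72 h, against 133, 126 and 123 CPM at 0 h (-1.94 ± 0.08, adjusted p = 1.57e-15).

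In the basket Nup153, which anchors it to the pore, had 532, 838 and 898 CPM at 72 h, against 166, 173 and 164 CPM at 0 h, a change of 2.17 ± 0.13 on the TMM scale (adjusted p = 1.19e-12) and -1.53 on the TPM scale. Nup153 and its partner Nup50 were the 2 genes called higher in each of the last 3 steps on the TMM scale, and both were called at 24 h against 12 h too. The call of Nup153 at 24 h was lost when any 1 of the 6 libraries was left out, and that of Nup50 at 48 h was lost without 36 h replicate 1, 36 h replicate 3 or 48 h replicate 2. On the TPM scale neither was called higher in any of these steps. Tpr, the filament of the basket, had 104, 97.3 and 98.7 CPM at 72 h, against 298, 334 and 326 CPM at 0 h (-1.68 ± 0.09, adjusted p = 1.3e-13). Nup50 had 262, 301 and 307 CPM at 72 h, against 125, 125 and 127 CPM at 0 h. Levels of these 3 basket genes at 72 h did not overlap with 0 h. The same held for every called gene among those chosen by symbol, so the lack of overlap does not set the basket apart. In that comparison 89.8% of all tested genes were called, and overlap was not counted over all genes.

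Merged after their values were seen, the 17 ring and anchor genes had 0 called higher and 17 lower at 72 h against 0 h (median -3.51), and the 10 channel, cytoplasmic face and basket genes 6 higher and 4 lower (median 0.33; on the TPM scale all 10 were lower, median -3.39). The summed TPM of the 10 over that of the 17, which does not depend on the scale between libraries, was 0.772 ± 0.0178 at 0 h, 0.76 ± 0.026 at 12 h, 0.864 ± 0.00639 at 24 h, 2.13 ± 0.256 at 36 h, 4.62 ± 0.244 at 48 h and 9.5 ± 0.458 at 72 h (SD, n = 3). These values are a description, with no test, because the merged sets were chosen on them.

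**Figure D4:**
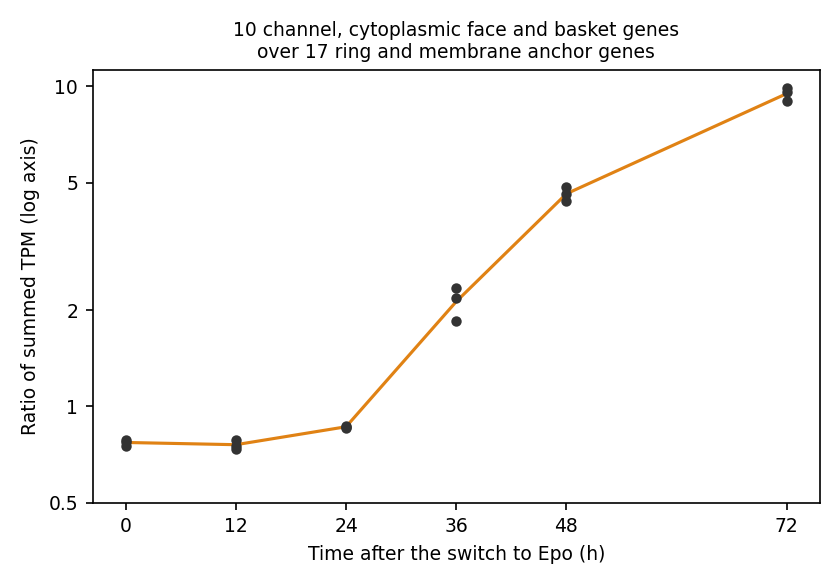
Summed TPM of 10 channel, cytoplasmic face and basket genes divided by that of 17 ring and anchor genes (log axis) by time; points are libraries and the line joins means of 3. The ratio lies between 0.76 and 0.864 on average up to 24 h and reaches 9.5 at 72 h.

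Importin alphas bind the classical import signal and hand it to importin beta. Kpna2, the form abundant in dividing cells, had 17.2, 16 and 24.7 CPM at 72 h, against 255, 273 and 249 CPM at 0 h, a change of -3.74 ± 0.16 (adjusted p = 2.98e-15). It was highest at 24 h, with 396, 384 and 367 CPM. Its steepest step on the TMM scale was the last, with 17.2, 16 and 24.7 CPM at 72 h, against 85.7, 95 and 132 CPM at 48 h (-2.43 ± 0.15, adjusted p = 5.47e-11). On the TPM scale its change was -2.49 in that step and -2.80 at 36 h against 24 h. Kpna1 had 171, 163 and 209 CPM at 72 h, against 84, 89.1 and 86.8 CPM at 0 h, a change of 1.06 ± 0.12 on the TMM scale (adjusted p = 6.33e-08) and -2.73 on the TPM scale. Kpna4 and Kpna6 were also called higher on the TMM scale, by 0.22 and 0.27, both were lower on the TPM scale, and Kpna3 was called lower on both. The call of Kpna4 was lost without 0 h replicate 3 or without 72 h replicate 2.

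The makeup of the family turned over. Kpna2 took 10.8 ± 2.18% of the summed TPM of the 5 importin alphas at 72 h, against 58.3 ± 0.874% at 0 h (SD, n = 3). Kpna1 took 33.6 ± 3.45% at 72 h, against 9.03 ± 0.811% at 0 h, and Kpna4 33 ± 4.07% at 72 h, against 12.2 ± 0.484% at 0 h. Kpna6 took 17.2% at 72 h, against 6.08% at 0 h, and Kpna3 5.4% at 72 h, against 14.4% at 0 h. None of these shares overlapped between 72 h and 0 h, and each exact two-sided permutation p was 0.1 (0.127 adjusted), the smallest possible.

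Of the 11 importin beta genes 8 were called lower at 72 h against 0 h, 2 higher and 1 in neither direction, with a median of -2.84. Ipo5, an importer of ribosomal proteins and histones, had 23.7, 38.6 and 32.1 CPM at 72 h, against 749, 718 and 695 CPM at 0 h (-4.52 ± 0.17, adjusted p = 4.42e-16). In the step to 36 h it had 79.4, 71.6 and 99.7 CPM, against 313, 306 and 304 CPM at 24 h (-1.88 ± 0.15, adjusted p = 5.42e-10). Ipo7, which carries similar cargo, had 42.6, 29.9 and 43.6 CPM at 36 h, against 135, 126 and 124 CPM at 24 h (-1.74 ± 0.11, adjusted p = 2.67e-11). Those were the largest falls of that step.

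Tnpo1 (transportin 1, GRCm38 chromosome 13, 98839019 to 98926384, minus strand), which imports many RNA-binding proteins, rose late while most of its family fell. It had 285, 297 and 282 CPM at 0 h, 116, 109 and 112 CPM at 12 h, 118, 113 and 119.8 CPM at 24 h, 760.1, 985 and 835 CPM at 36 h, 1126, 1267 and 1200 CPM at 48 h and 651, 1493 and 1237 CPM at 72 h. The fall at 12 h was -1.36 ± 0.18 (adjusted p = 1.78e-06) and the rise at 36 h against 24 h 2.88 ± 0.19 (adjusted p = 2.6e-11). That rise held on the TPM scale, at 0.98, and Xpo7 and Tnpo1 were the 2 of the 51 genes called higher there, where 4.30% of genes were. At 72 h against 0 h Tnpo1 changed by 1.97 ± 0.18 on the TMM scale (adjusted p = 1.75e-09) and by -1.25 on the TPM scale. At 72 h its libraries spread more than at any other time, from 651 to 1493 CPM. Tnpo2, its closest relative, was called higher by 0.71 on the TMM scale at 72 h relative to 0 h and was lower on the TPM scale.

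The ratio of estimated counts to TPM of a gene follows the effective length of the transcripts that were assigned reads. Log2 counts per TPM of a gene was taken relative to the median of 288 genes with 1 annotated transcript. The mean of the same gene at 0 h was then subtracted, so its values at 0 h lie near 0 by construction. For Tnpo1 the result was 0.03, -0.01 and -0.02 at 0 h, -0.25, -0.21 and -0.23 at 24 h, -0.48, -0.41 and -0.41 at 36 h, and -0.74, -0.75 and -0.66 at 72 h. The libraries of 72 h lay below those of 0 h by 0.71 on average, where the central 95% of those single-transcript genes ran between -0.31 and 0.26. For Xpo7 the same difference was -0.18, and for Xpo6 -1.15, with -1.57, -1.26 and -0.61 in the 72 h libraries. This measure was added after the data were seen, has no test, and rests on the transcript assignment of the deposited tables.

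RefSeq lists 2 starts for Tnpo1. The 250 bases before each of them, before the start of Ranbp2 and before that of Kpna2 are shown (RefSeq, GRCm38.p6), since Tnpo1 and Ranbp2 had the highest rises at 36 h after Xpo7 and Kpna2 the steepest fall of the last step. Each is written 5′ to 3′ on the strand of the gene, and capitals mark CACCC, the core of the sites that Krüppel-like factors bind, or GGGTG, the same word on the other strand.
Tnpo1, outer start, chr13:98926385-98926634, minus strand: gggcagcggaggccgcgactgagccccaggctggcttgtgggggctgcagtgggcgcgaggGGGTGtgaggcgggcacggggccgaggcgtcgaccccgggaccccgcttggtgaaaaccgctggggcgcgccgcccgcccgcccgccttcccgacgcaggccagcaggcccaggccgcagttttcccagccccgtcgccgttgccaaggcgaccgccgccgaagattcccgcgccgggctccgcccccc
Tnpo1, inner start, chr13:98891043-98891292, minus strand: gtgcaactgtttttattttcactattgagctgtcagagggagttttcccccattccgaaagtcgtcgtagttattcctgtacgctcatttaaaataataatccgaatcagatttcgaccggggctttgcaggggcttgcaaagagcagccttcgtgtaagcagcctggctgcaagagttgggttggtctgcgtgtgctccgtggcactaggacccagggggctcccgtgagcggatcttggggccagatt
Ranbp2, chr10:58446602-58446851, plus strand: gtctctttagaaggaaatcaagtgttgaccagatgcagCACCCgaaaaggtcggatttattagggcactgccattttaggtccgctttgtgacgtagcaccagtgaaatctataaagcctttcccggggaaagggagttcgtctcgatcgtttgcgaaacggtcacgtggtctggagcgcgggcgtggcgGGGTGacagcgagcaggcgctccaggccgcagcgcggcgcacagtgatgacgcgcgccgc
Kpna2, chr11:106999526-106999775, minus strand: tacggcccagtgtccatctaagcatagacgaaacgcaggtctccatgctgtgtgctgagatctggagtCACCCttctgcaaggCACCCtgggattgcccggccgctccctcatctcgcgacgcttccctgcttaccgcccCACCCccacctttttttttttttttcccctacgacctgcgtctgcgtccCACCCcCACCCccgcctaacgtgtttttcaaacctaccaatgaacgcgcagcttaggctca
In these windows CACCC occurred 1 time before the outer start of Tnpo1, 0 times before the inner one, 2 times before Ranbp2 and 5 times before Kpna2. The GATA words AGATAA and TGATAA, searched on both strands, were not in any of the 4 windows.

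Of the 51 genes 41 matched the RefSeq promoter table, with 48 promoters. AGATAA or TGATAA was in 6.25% of these (Ipo5, Sec13 and Tnpo3, which all fell) and in 16.6% of 32851 promoters of the same length. It was in none of the promoters of 9 genes that were higher on the TMM scale in the comparison of 72 h with 0 h. Xpo7, Kpna1 and Kpna6 were also higher but were among the 10 genes without a match in the promoter table, so their promoters were not searched. CACCC was in 54.2% of the 48 promoters and in 52% of all promoters. Counted by gene, with a match in any of its promoters, 7 of the 9 higher and 16 of the 31 lower genes had it. All genes were not counted in this way, so these counts have no background. CANNTG was in 39.6% of the 48 promoters, against 66.2% of all promoters. CACCC and CANNTG matches were searched on both strands and may share bases. The median GC content was 63.6% in these promoters and 52.4% in all, so words rich in A and T differ in how often they could occur. A match is a description of letters, not of binding.

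Ran, the GTPase at the centre of the cycle, had 59.4, 56.3 and 49.8 CPM at 72 h, against 457, 453 and 429 CPM at 0 h (-3.02 ± 0.11, adjusted p = 4.98e-16). Ran did not pass the test up to 24 h and fell in each of the 3 later steps. At 12 h against 0 h its change was -0.22 (edgeR adjusted p = 0.0824). It was called lower there by the DESeq2 Wald test (-0.26, adjusted p = 0.0242) and in edgeR with the size factors of DESeq2 (adjusted p = 0.0434). Further genes of the pathway were counted from lists outside the 51. Of 32 tested, 6 were called higher, 24 lower and 2 in neither direction at 72 h against 0 h, with a median of -1.47. Among all tested genes 43.3% were higher and 46.5% lower in this comparison. In the Ran cycle 4 of 6 were lower, led by Ranbp1, a cofactor of GTP hydrolysis on Ran, at 5.22 ± 0.112 CPM at 72 h, against 145 ± 8.45 CPM at 0 h (-4.80 ± 0.13). Nutf2, which returns Ran to the nucleus, was called higher there, at 109 ± 7.31 CPM at 72 h, against 39.6 ± 14.4 CPM at 0 h (1.47 ± 0.23 on the TMM scale, -2.32 on the TPM scale).

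Of 17 mRNA export genes 14 were lower and 3 higher at 72 h against 0 h. Thoc3, a subunit of the THO complex, had 4.67 ± 1.03 CPM at 72 h, against 53.6 ± 1.58 CPM at 0 h (-3.52 ± 0.13), and the helicase Ddx19a had 199 ± 42.1 CPM at 72 h, against 80.8 ± 2.47 CPM at 0 h (1.30 ± 0.11 on the TMM scale, -2.50 on the TPM scale). Among 6 further nucleoporin entries 4 were lower and 1 higher. Ahctf1, the pore assembly factor ELYS, changed by -1.84 ± 0.08. The higher entry was 1 of 2 named Nupl1 and lay near 0, at 0.63 ± 0.343 CPM at 72 h, against 0.0979 ± 0.0609 CPM at 0 h (2.59 ± 0.75). The other Nupl1 entry held far more counts and was called lower, at 42.7 ± 5.42 CPM at 72 h, against 87.2 ± 2.88 CPM at 0 h (-1.03 ± 0.08). Among 3 further receptors and adaptors Snupn, an import adaptor of spliceosomal particles, changed by -2.44 ± 0.19. Ranbp17, the closest relative of Xpo7, was called higher by 1.94 ± 0.50 and remained low, at 1.01 ± 0.565 CPM at 72 h, against 0.265 ± 0.0413 CPM at 0 h.

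The steps before and after 36 h had their own members. At 12 h against 0 h, where 4 genes rose, Nup88 of the cytoplasmic face had 109, 111 and 112 CPM at 12 h, against 75.9, 75.3 and 71.6 CPM at 0 h (0.57 ± 0.08, adjusted p = 3.71e-06). Ipo13, a receptor that works in both directions, had 66.9, 60.8 and 58.6 CPM at 12 h, against 46.1, 40.5 and 42.2 CPM at 0 h (0.53 ± 0.08, adjusted p = 1.54e-05). Both rises were called on the TPM scale too, unlike those of Sec13 and Kpna2, and the call of Kpna2 was lost when any 1 of the 6 libraries was left out. The 2 largest falls were those of Tnpo1, given above, and of Nup37, which had 10.8, 8.91 and 9.88 CPM at 12 h, against 24.6, 26.6 and 24.6 CPM at 0 h (-1.36 ± 0.13, adjusted p = 2.92e-08).

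At 24 h against 12 h few genes moved. Nup50 had 160.2, 161 and 154 CPM at 24 h, against 114, 115 and 121 CPM at 12 h (0.44 ± 0.07, adjusted p = 4.37e-05; 0.13 and not called on the TPM scale). Nup62 changed by 0.36 ± 0.12 (adjusted p = 0.0212), with 92.7, 85.6 and 79.9 CPM at 24 h, against 71.4, 68.5 and 60.8 CPM at 12 h, a call lost on the TPM scale and without 12 h replicate 3, 24 h replicate 1 or 24 h replicate 2. Ipo4, a carrier of histones and ribosomal proteins, fell furthest, with 35.4, 28.4 and 33 CPM at 24 h, against 68.4, 60.7 and 56 CPM at 12 h (-0.94 ± 0.12, adjusted p = 3.81e-06). Ipo5 fell next, with 313, 306 and 304 CPM at 24 h, against 443, 422 and 415 CPM at 12 h (-0.47 ± 0.14, adjusted p = 0.0123).

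At 48 h against 36 h Nup62 had 189.8, 232 and 197 CPM at 48 h, against 107, 140.3 and 116 CPM at 36 h (0.77 ± 0.12, adjusted p = 2.96e-05; 0.18 and not called on the TPM scale). Kpna1 had 148, 199 and 214 CPM at 48 h, against 105, 137 and 123 CPM at 36 h (0.62 ± 0.12, adjusted p = 0.00029; -0.07 on the TPM scale). Cse1l, the export receptor of importin alpha, had 27.1, 27.3 and 41.1 CPM at 48 h, against 79.8, 68 and 100 CPM at 36 h (-1.38 ± 0.14, adjusted p = 1.23e-07). Nup210 had 20.6, 21.5 and 30.6 CPM at 48 h, against 61.2, 54.2 and 81.4 CPM at 36 h (-1.44 ± 0.15, adjusted p = 2.93e-07).

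The last step had 1 rise that stood apart. Rae1, an mRNA export factor that pairs with Nup98, had 68.3, 88.4 and 89.3 CPM at 72 h, against 29.6, 28.6 and 30.3 CPM at 48 h (1.48 ± 0.09, adjusted p = 5.8e-11). It was the 1 gene of the 51 called higher on the TPM scale in that step, at 0.68, where 4.59% of genes were. Nup153 had 532, 838 and 898 CPM at 72 h, against 426, 411 and 461 CPM at 48 h (0.81 ± 0.13, adjusted p = 1.31e-05; 0.16 and not called on the TPM scale). Nup210 had 5.07, 7 and 8.41 CPM at 72 h, against 20.6, 21.5 and 30.6 CPM at 48 h (-1.82 ± 0.17, adjusted p = 1.85e-08).

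**Figure D5:**
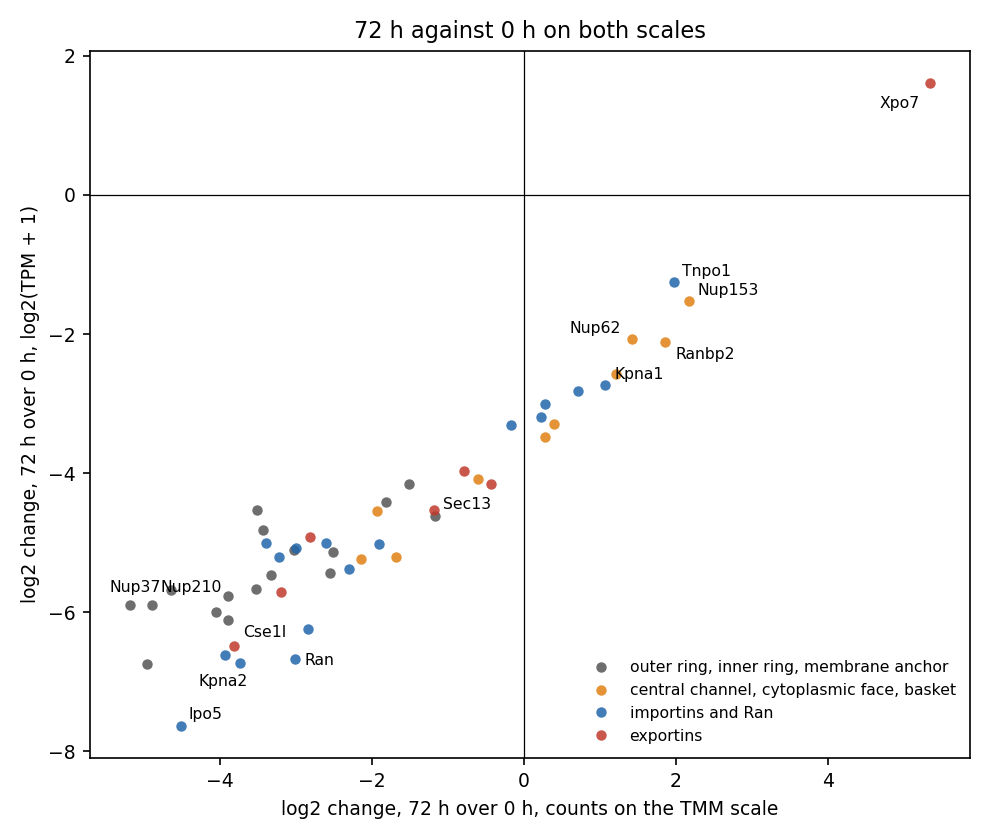
Log2 change at 72 h over 0 h of the 51 genes on the TMM scale of counts (x axis) and on log2(TPM + 1) (y axis), coloured by role. Xpo7 is the 1 gene above 0 on both axes, at 5.34 and 1.61, and 11 genes above 0 on the x axis lie below 0 on the y axis.

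Between libraries of a group TPM levels could shift together: at 48 h 50 of the 51 genes were highest in replicate 3 in TPM, against 34 in CPM, and at 72 h none was highest in replicate 2 in TPM, against 24 in CPM. Shares and ratios within a library do not carry this shift.

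Blocking heme synthesis for 12 h moved none of the 51 genes past the threshold. In 12 h SA against 12 h edgeR called 0, where 0.380% of tested genes were called (0.0162% higher, 0.364% lower). DESeq2 also called 0 of the 51, where it called 25 higher and 126 lower of 12355 genes. At an unadjusted p under 0.05 were 2 of the 51 in edgeR and 7 in DESeq2, and the share of all genes under that limit was not counted. On the TPM scale 0 were called, where 0.378% were (0.0315% higher, 0.346% lower). On the TMM scale the changes ran from -0.35 to 0.26. Xpo7 had 59.1, 59.8 and 59 CPM at 12 h SA, against 56.7, 56 and 57.1 CPM at 12 h (0.07 ± 0.11, adjusted p = 1). These libraries did not overlap, and the difference did not pass the test. Its share of exportin TPM was 4.69 ± 0.133% at 12 h SA and 4.66 ± 0.125% at 12 h. Ipo4 had the lowest change, at 48.3 ± 2.62 CPM at 12 h SA, against 61.7 ± 6.25 CPM at 12 h (-0.35 ± 0.12, adjusted p = 0.411). No SA library was made after 12 h, so the later rise of Xpo7 was not measured under the block.

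The genes with the course most like that of Xpo7 were named by Pearson correlation of mean log2 CPM over the 7 groups, a description over groups of 1 time course that share their libraries. Mmp13 (0.9990), Ern1 (0.9988), Wfdc3 (0.9987), Zfp119a (0.9985) and D230025D16Rik (0.9984) came first of all tested genes. Ern1, a sensor of unfolded protein in the endoplasmic reticulum, held 16.5 CPM at 24 h and 164 at 36 h on average, and Mmp13, a collagenase, 0 and 13.8. Within the 51 the closest were Ranbp2 (0.99), Tnpo1 (0.96) and Kpna1 (0.91).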

How the data were processed

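The authors deposited a table of estimated counts and a table of TPM (abundance per transcript length and library), each with 1 column per library and 22483 genes. The tools named are STAR 2.5.3a, DESeq2 and kallisto, and the builds mm10 and GRCm38.p5, per the submitters' processing notes; which tool made which table is not given in the sources used here. Genes, lists and the rule for named genes were chosen with earlier results of these data known. The rule names Xpo7, the highest and lowest called gene of each role at 72 h against 0 h, the 2 largest called rises and falls of each other comparison, and the extreme called genes of the further lists; Ranbp2 and Nup153 at 36 h were added after their values were seen.

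Estimated counts were rounded, filtered with filterByExpr (minimum count 10), scaled by TMM and fitted with edgeR 4.0.16 (glmQLFit, glmQLFTest; R 4.3.3) over all 21 libraries, with Benjamini-Hochberg adjustment over 12360 genes and a threshold of 0.05, two-sided. The SE of a change is its size over the square root of F. TPM were tested with limma 3.58.1 on log2(TPM + 1), keeping genes that averaged 1 TPM or more, which understates changes of low genes. DESeq2 1.42.0 was an alternative, as were other scalings, filters and each library left out in turn. The pipeline was also run on simulated counts in which all groups shared the same mean profile apart from planted changes. The rise in globin share was not simulated, so that run does not test the scaling between groups. Positions come from GENCODE M21, where all 51 IDs were found (45 with the same version).

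Libraries held 16.7 to 39.3 M counts, and replicate libraries differed by more than sampling noise (chi-square per gene 6.22 to 244). Replicate numbers were taken to pair libraries where deviations from the group mean correlated above 0.1 in all 3 pairs (3941 genes). The lowest value was 0.1 (before rounding above it) for 12 h with 0 h, 0.419 for 24 h with 12 h, 0.216 for 48 h with 36 h, 0.4 for 72 h with 48 h and 0.487 for 12 h SA with 12 h, so these pair; 36 h with 24 h and 72 h with 0 h do not. This comes from the data, since no label gives the meaning of a replicate number.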

Additional observations from a re-analysis of the deposited data

How the results depend on the processing

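With the replicate number as a block, the counts of genes called were the same in 6 comparisons and 1 lower at 12 h against 0 h (34 lower, against 35), where Tnpo3 lost its call (-0.16, adjusted p = 0.053 in edgeR with the block). The block changed no other call of the 51, and Xpo7 against the other 50 was 6.98 at 36 h with it. Pairing did not hold for 36 h with 24 h (lowest correlation 0.0502) or 72 h with 0 h (-0.102).

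On the TPM scale (limma, either pseudocount or filter) counts called higher were 1 or 2 at 12 h, 0 at 24 h, 2 at 36 h, 0 at 48 h, 1 at 72 h against 48 h and 1 for the whole course (72 h over 0 h), and counts called lower 20 at 12 h with a pseudocount of 0.1 and, at 24 h, 20 to 23 with a pseudocount of 1 and 9 with 0.1. Of the genes called higher on the TMM scale, 7 of 9 at 36 h, 10 of 11 at 48 h, 7 of 9 at 72 h against 48 h and 11 of 12 over the whole course had a negative change on the TPM scale. Among the changes recomputed for genes named in full, the reversed ones were Xpo7 at 24 h (-0.22 and -0.23) and 48 h (-0.32), Ranbp2 (-0.41) and Nup153 (-1.01 and -1.03) at 36 h, Kpna1 at 48 h (-0.07 and -0.08), and at 72 h against 0 h Nup62 (-2.07 and -2.13), Ranbp2 (-2.12 and -2.16), Nup153 (-1.53 and -1.56), Kpna1 (-2.73 and -2.87) and Tnpo1 (-1.25 and -1.27). A fold of at least 2 left 0 higher and 4 lower at 12 h (all tested genes 9.96% and 7.78%), 0 and 0 at 24 h (4.5% and 4.93%), 4 and 21 at 36 h (22.3% and 18.9%), 0 and 15 at 48 h (5.73% and 7.52%), 1 and 9 at 72 h against 48 h (12.5% and 13%), and 7 and 35 over the whole course (36.1% and 36.8%). With the compared libraries alone 11 were higher and 15 lower at 24 h (all tested genes 26.3% and 30.3%), and 0 higher and 2 lower with SA (0.801% and 3.38%). Without the count filter 8 were higher and 39 lower at 72 h against 0 h (6784 and 6114 of 18914 genes). In that setting 9 were higher and 35 lower at 48 h against 36 h (2209 and 3749 genes), and 6 and 31 at 72 h against 48 h (2756 and 4556 genes).

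Leaving out 1 library gave 1 to 2 higher and 5 to 8 lower at 24 h (5 lower without 24 h replicate 2; 1 higher without 24 h replicate 1 or 2) and 6 to 11 higher at 48 h (6 without 36 h replicate 1 or 3, 7 without 48 h replicate 2). Xpo7 against the others with SA ran from -0.01 to 0.04, called in no case. Shares of Xpo7 by counts were 5.48% at 0 h, 6.58% at 12 h, 6.65% at 12 h SA, 7.29% at 24 h, 89.4% at 36 h, 92.5% at 48 h and 85.8% at 72 h; shares of importin alphas by counts, added after the data were seen, gave Kpna2 4.26% at 72 h, against 39.3% at 0 h. Of 725 alternatives for single named genes 635 kept direction and side of the threshold, 27 lost the call, 30 were reversed and 33, all shares of importin alphas by counts, moved by more than the replicate spread. The cause of these differences was not tested.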
